A study of Mus musculus with 2 samples.

Results

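The PYHIN genes of the mouse Ifi200 cluster described here are Ifi202b, Ifi203, Ifi204, Mndal, Aim2 and Pyhin1. They are 6 of the 18194 genes that had a probeset with 1 gene symbol on the array. They were taken by name, with every probeset annotated to any of them. This gave 13 of 45101 probesets, of which 8 carried 1 gene symbol and 5 were shared with other genes. No probeset was listed under the symbol Pyhin1. The RefSeq gene table gives Pyhin1 as a synonym of Ifi209, so the 2 probesets listed as Ifi209 were used for it. The genes were proposed with earlier results of this same contrast in view, so their values are a description, with no test.

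RNA came from RAW264.7 cells, a macrophage-like line from a BALB/c mouse. The cells carried the retroviral vector MSCV, either encoding miR-155 or empty. Both arms had been exposed to polybrene and selected with puromycin at 7 µg/ml, and single clones had been raised by limiting dilution. RNA of 5 clones was pooled in each arm and measured on 1 Affymetrix array. With 1 array per group no p-value or standard error could be computed, and differences between pools of clones, cultures and arrays cannot be told apart from an effect of miR-155. The introduced microRNA is shown by its main mature arm, from RefSeq (GRCm38.p6, chr16:84714143-84714165, plus strand), with the seed, bases 2 to 8, in capitals:

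miR-155-5p: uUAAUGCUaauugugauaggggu

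The untranslated regions of the PYHIN mRNAs were not analysed here, so nothing is said of sites for this seed.

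PYHIN proteins are interferon-inducible proteins built from an N-terminal pyrin domain, which binds other pyrin domains, and 1 or more C-terminal HIN domains, which bind DNA. AIM2 senses DNA in the cytosol and assembles an inflammasome through the adaptor ASC, whereas p202, the product of Ifi202b, lacks a pyrin domain and has been reported to hold back AIM2 in mouse cells. The genes lie side by side on mouse chromosome 1 and arose by repeated duplication, so their transcripts are alike and a probeset can respond to several of them.

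The arrays had a median signal of 14.1 (miR-155) and 15.4 (empty vector). Of 14 macrophage markers, 12 read at or above a signal floor of 25.8 on each array. By ratio, defined below, 4 of the 12 were at least 1.5-fold higher and 2 as much lower. The largest were those of the lipopolysaccharide co-receptor Cd14 (1.26), Aif1 (0.95), Adgre1, encoding F4/80 (−0.71), and the Fc receptor Fcgr1 (0.66). The summed signal of all 14 was 27139 on the miR-155 array and 26278 on the empty-vector array. The floor is the lowest geometric mean signal in the upper 50% of genes, which left 9097 genes, called the genes kept below. Ratios are log2 of the miR-155 signal over the empty-vector signal, and none is given for a probeset with a reading below the floor. The spread beside a ratio, here the local SD, is the robust SD of the ratio among the 500 genes nearest in signal; it is no replicate error.

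Of the 13 probesets, 8 had both signals at or above the floor, and they covered Ifi202b, Mndal and Aim2 and, only through shared probesets, Ifi203 and Ifi204. On the miR-155 array 7 of these 8 were higher by at least 2-fold and 2 by at least 4-fold, and none was as much as 1.5-fold lower. Over all 16270 probesets at or above the floor on both arrays, 1.14% passed the 2-fold mark upwards, 0.154% the 4-fold mark upwards and 5.59% the 1.5-fold mark downwards. The genes were picked from this contrast, so nothing is read from that difference. By probesets with 1 symbol, 3 of the 6 genes were kept. Ifi202b and Mndal were at least 2-fold higher and Aim2 was not, beside 1.92% of all genes kept that were at least 2-fold higher. Ifi202b was also past 4-fold, as were 0.264% of the genes kept, but not with an offset of 50 added to both signals (log2 ratio 1.75).

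**Figure D1:**
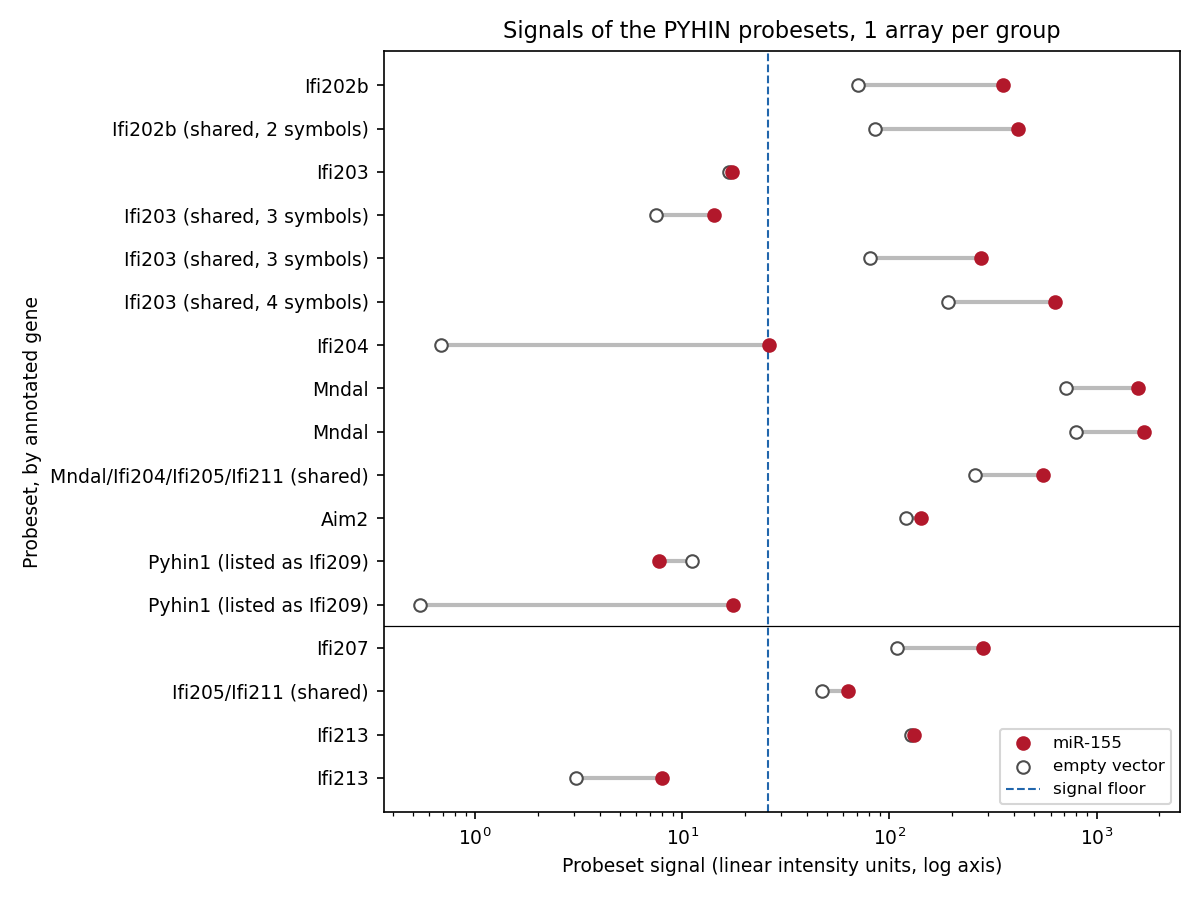
Signals of the 13 PYHIN probesets (above the line) and of 4 probesets of further cluster genes (below it) on the miR-155 array (filled) and the empty-vector array (open), on a log axis, 1 array per group. Above the dashed floor of 25.8, 7 of the 8 PYHIN probesets were 2.12-fold to 5.05-fold higher on the miR-155 array, and Aim2 was at 142 against 120.

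Ifi202b had the highest ratio of the PYHIN genes readable on both arrays. Its probeset with 1 symbol (1421551_s_at) read 355 on the miR-155 array and 70.2 on the empty-vector array, a 5.05-fold difference (log2 ratio 2.34, local SD 0.28). This placed it 13th from the highest of the 9097 genes kept. The probeset shared with the predicted gene LOC100044068 (1457666_s_at) read 419 and 85.1 on the miR-155 and empty-vector arrays (log2 ratio 2.30). Both probesets were thus far above the floor on the miR-155 array, and their ratios differed by less than the local SD. Both carry the suffix that Affymetrix gives to probesets whose probes match more than 1 transcript.

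Ifi203 encodes a nuclear PYHIN protein with several isoforms. It was read above the floor only by probesets shared with the pseudogene Ifi203-ps and with predicted loci. The probeset with 4 symbols (1451567_a_at) read 628 on the miR-155 array and 191 on the empty-vector array (3.29-fold, log2 ratio 1.72, local SD 0.21). The brighter probeset with 3 symbols (1448775_at) read 278 and 80.4 on the miR-155 and empty-vector arrays (3.46-fold, log2 ratio 1.79, local SD 0.31). The dimmer one with the same symbols (1425008_a_at) was below the floor on both arrays, at 14.2 (miR-155) and 7.44 (empty vector). The only probeset assigned to Ifi203 alone (1442828_at) was also below the floor on both, at 17.3 (miR-155) and 16.7 (empty vector). The share of Ifi203 itself in the bright shared signals was therefore not measured.

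Mndal, a nuclear PYHIN protein related to the human myeloid nuclear differentiation antigen, had 2 probesets with 1 symbol. The first (1452231_x_at) read 1687 on the miR-155 array and 796 on the empty-vector array (2.12-fold, log2 ratio 1.08, local SD 0.16). The second (1426906_at) read 1582 and 712 on the miR-155 and empty-vector arrays (2.22-fold, log2 ratio 1.15, local SD 0.17). The array with miR-155 was higher in both, by nearly the same factor. Mndal ranked 149th from the highest of the genes kept, and its ratio was less than that of Ifi202b.

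Ifi204 encodes p204, reported as a DNA sensor upstream of STING and as a regulator of differentiation. Its own probeset (1419603_at) read 26.2 on the miR-155 array, just above the floor, and 0.68 on the empty-vector array, where only 3.28% of probesets were lower. No fold is given, since the lower reading lies where no detection limit is known. A probeset shared by Mndal, Ifi204, Ifi205 and Ifi211 (1452348_s_at) read 550 on the miR-155 array and 259 on the empty-vector array (2.13-fold, log2 ratio 1.09, local SD 0.21). That ratio lies between those of the Mndal probesets, and how much of it came from Ifi204 was not measured.

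Aim2, the cytosolic DNA sensor, stood apart from these genes. Its single probeset (1426619_at) read 142 on the miR-155 array and 120 on the empty-vector array (1.18-fold, log2 ratio 0.24, local SD 0.31). The difference was smaller than the spread among genes of like signal, and Aim2 ranked 1469th from the highest of the genes kept. Ifi202b, the gene for its reported antagonist, was 5.05-fold higher on the same array. The ratio of Ifi202b lay 2.09 above that of Aim2 on the log2 scale. Both genes were picked from this contrast, so nothing is read from the size of that gap.

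Pyhin1, of which the human counterpart IFIX is a nuclear protein, was below the floor by both probesets listed as Ifi209. The first (1435330_at) read 7.69 on the miR-155 array and 11.1 on the empty-vector array, and the second (1435331_at) 17.6 and 0.54. The probesets pointed in opposite directions, so these arrays give no direction for Pyhin1.

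Further genes of the cluster went both ways of the same divide. Ifi207, another PYHIN gene, read 282 on the miR-155 array and 109 on the empty-vector array (2.58-fold, log2 ratio 1.37, local SD 0.28). Ifi213 read 132 and 127 on the miR-155 and empty-vector arrays (log2 ratio 0.057, local SD 0.31), and its second probeset was below the floor on both. A probeset shared by Ifi205 and Ifi211 read 63.0 on the miR-155 array and 47.1 on the empty-vector array (log2 ratio 0.42, local SD 0.45), within the local spread. Ifi206, Ifi208 and Ifi214 had no probeset here.

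The ratios were then set in the RefSeq gene order. From the Aim2 end, Aim2 (0.24) and Ifi213 (0.057) were within 1.5-fold, and Ifi209 was below the floor. Then Ifi207 (1.37), Mndal (1.08) and Ifi202b (2.34) followed, with the shared Ifi203 and Ifi204 probesets at 1.09 to 1.79 between Ifi207 and Ifi202b. A probeset of Ifi211, which lies in that stretch, and Ifi205, which lies beyond Ifi202b, was at 0.42. Both genes also share the probeset at 1.09 with Mndal and Ifi204. Outside the cluster, the 10 nearest genes on the Aim2 side that had a probeset, among them Cadm3, Ackr1 and Fcer1a, were all below the floor on both arrays. Of the 10 nearest on the Ifi205 side, 4 were at or above it on both arrays, and none of these was 1.5-fold different. Fh1, the fumarate hydratase, was at 0.34, Opn3 at 0.41, Chml at −0.089 and the exonuclease Exo1 at −0.066. The other readable probeset of Exo1 gave 0.28. Kmo, an enzyme of tryptophan breakdown, read 48.6 on the miR-155 array and 18.7 on the empty-vector array.

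**Figure D2:**
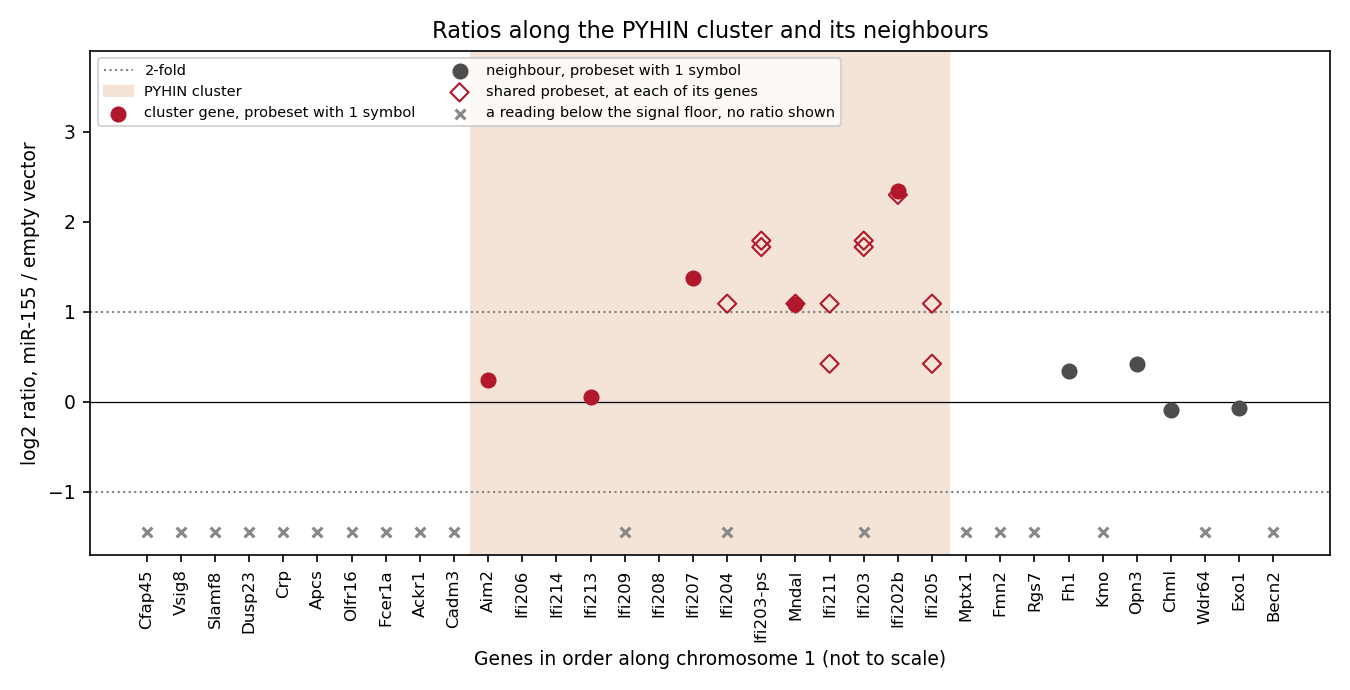
Log2 ratio (miR-155 over empty vector, vertical axis) of the cluster genes and of the 10 nearest genes on each side, in gene order along chromosome 1 (horizontal axis, not to scale). Filled points are probesets with 1 symbol, diamonds are shared probesets drawn at each of their genes, and crosses mark genes with a reading below the floor; Ifi207, Mndal and Ifi202b lie above the 2-fold line, while Aim2 and Ifi213 lie near 0.

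The sequence just before the transcription start was compared because interferon acts on such genes through the interferon-stimulated response element, a site bound by IRF proteins. RefSeq promoter windows (GRCm38.p6, the C57BL/6J assembly, not the BALB/c background of these cells) run from 250 bases before to 50 after the start. The core searched was GAAA followed, after any pair of bases, by a second GAAA, on both strands. It was in at least 1 window of 9 of the 12 cluster genes with an entry, against 3.99% of 27025 genes and 17 of 32 interferon-stimulated genes outside the family. Of the 5 described genes with an entry, Mndal and Ifi203 had it, while Ifi202b, Aim2 and Ifi209 (Pyhin1) did not. Cluster genes are duplicates, so these are not independent matches. A further motif, TTCNNNGAA, as bound by STAT dimers, was found in 1 of the 12 cluster genes (8.33%) and in 9.55% of all genes. The cluster gene was Ifi202b, with the motif at positions −148 to −140 from the start.

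The last 80 bases before the start are shown for the 5 described genes with an entry and for Ifi207 and Ifi213, which have the same core and different ratios. Capitals mark this core:

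Ifi202b: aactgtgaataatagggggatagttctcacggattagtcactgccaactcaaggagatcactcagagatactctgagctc
Ifi203: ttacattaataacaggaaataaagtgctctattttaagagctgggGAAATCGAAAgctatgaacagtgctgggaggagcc
Mndal: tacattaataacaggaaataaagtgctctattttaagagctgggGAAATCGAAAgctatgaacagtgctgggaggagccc
Ifi207: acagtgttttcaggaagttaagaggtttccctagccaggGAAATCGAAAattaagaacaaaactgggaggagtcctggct
Ifi213: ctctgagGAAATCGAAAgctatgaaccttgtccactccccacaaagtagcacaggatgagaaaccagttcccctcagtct
Ifi209 (Pyhin1): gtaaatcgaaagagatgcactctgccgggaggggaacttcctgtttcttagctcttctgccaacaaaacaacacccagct
Aim2: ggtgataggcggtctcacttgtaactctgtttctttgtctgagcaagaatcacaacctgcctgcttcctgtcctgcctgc

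These stretches are chr1:173982845-173982924 for Ifi202b, chr1:173942493-173942572 for Ifi203, chr1:173880188-173880267 for Mndal, chr1:173741810-173741889 for Ifi207 and chr1:173599273-173599352 for Ifi213, all on the minus strand. Those of Ifi209, chr1:173630779-173630858, and Aim2, chr1:173420524-173420603, are on the plus strand. Ifi203 and Mndal each have a second window for another start. The second of Mndal holds the core on the opposite strand, and the second of Ifi203 does not hold it.

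The exact letters GAAATCGAAA, as before Ifi203, Mndal, Ifi207 and Ifi213, were in 16 of all 32851 promoter windows, and 7 of these 16 belonged to this cluster. Their first base was at position −36 from the start in Mndal, −35 in Ifi203, −41 in Ifi207 and −73 in Ifi213. Before Ifi209 the same letters occurred with 1 substitution, G1T, counted from the first base of the core. The 250 bases before the start were 89.3% identical between Mndal and Ifi203 and 85.0% identical between Ifi207 and Ifi211, by global alignment.

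The core is set here beside the ratios, and its part in them was not tested. Mndal (1.08) and Ifi207 (1.37) had the core and were higher on the miR-155 array, but Ifi213, with the same letters, was at 0.057. Ifi202b, with the highest ratio of those readable (2.34), and Aim2 (0.24) both lacked it in this window. Outside the cluster, 267 genes kept had the core in a promoter window, and 11.6% of these were at least 1.5-fold higher on the miR-155 array, against 4.81% of 7232 genes kept without it. At least 1.5-fold lower were 13 of the 267 and 436 of the 7232. The medians of the ratio were −0.025 with the core and −0.052 without it. Interferon-stimulated genes outside the family, already known to be higher, were not left out here. Their part in the difference was not tested.

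**Figure D3:**
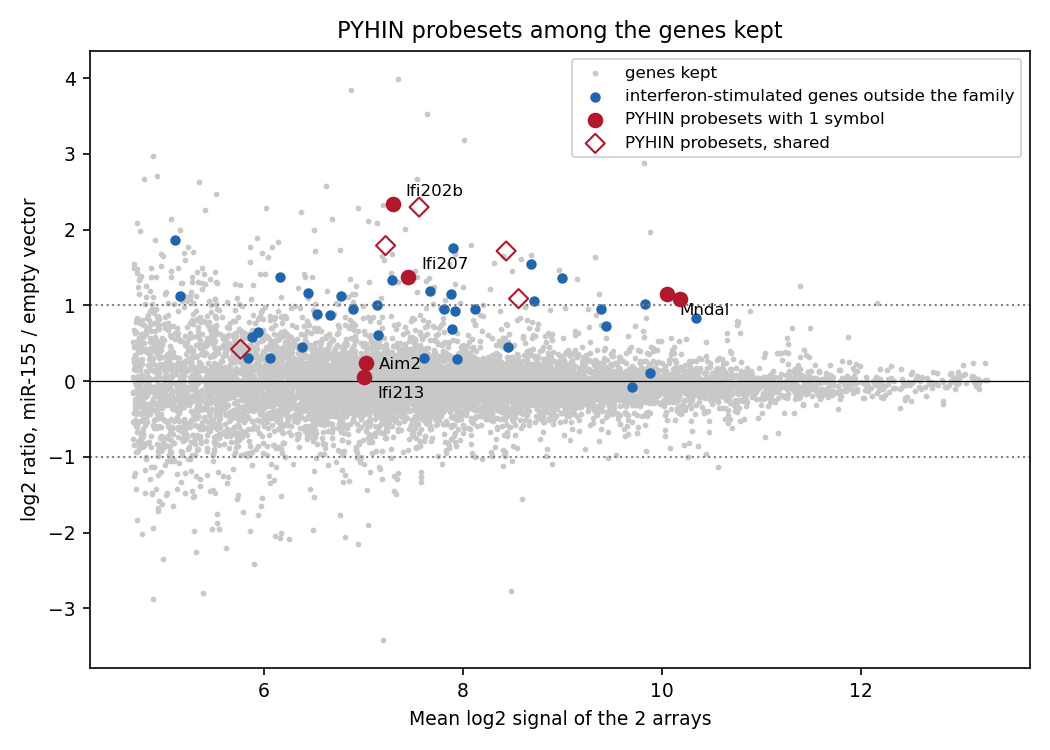
Log2 ratio (miR-155 over empty vector, vertical axis) against mean log2 signal (horizontal axis) for the 9097 genes kept (grey), the interferon-stimulated genes outside the family (blue) and the cluster probesets at or above the floor on both arrays (red, filled with 1 symbol and open where shared). Ifi202b is at 2.34 and Mndal at 1.08 and 1.15, above the dotted 2-fold line, while Aim2 and Ifi213 lie among the genes of like signal.

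Interferon-stimulated genes outside the PYHIN family, a list already known to be higher in these arrays, give the setting for these values. Of 35 such genes kept, 34 had a ratio above 0 and none was 1.5-fold lower. The 1.5-fold mark was passed upwards by 26 of them and the 2-fold mark by 14. These counts include Oasl2 and Ifit3, which were kept through their miR-155 readings; without them, 24 and 12 of 33 genes passed. Their median was 0.95, against −0.048 over all genes kept, of which 5.32% were at least 1.5-fold higher. The ubiquitin ligase gene Trim30a read 439 on the miR-155 array and 129 on the empty-vector array (log2 ratio 1.76, and 1.68 in its further probeset). Usp18, the protease that removes ISG15, was at 1.54, the RNA sensor regulator Dhx58 at 1.37 and Lgals3bp at 1.36. The antiviral Oasl2 read 65.7 on the miR-155 array and did not reach the floor on the other array. Among the listed genes that reached the floor on both arrays the highest ratio was that of Trim30a, below that of Ifi202b (2.34). Mndal (1.08) was within their range and Aim2 (0.24) in its lower part.

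Genes that carry or damp the interferon signal had smaller ratios. The list held receptors, kinases, STAT and IRF genes, and also the inhibitor Socs3 (−0.12) and the phosphatase Ptpn6 (−0.23). Socs1, also listed, was below the floor on both arrays. Of its 18 genes kept, 17 reached the floor on both arrays. Of these 17, 2 were at least 1.5-fold higher and none as much lower, beside 5.32% and 5.99% of all genes kept. The median of the 18 was 0.14, but it turned to −0.060 when only the brightest 25% of genes were used, and averaging all probesets of a gene gave 0.058. Irf7, the interferon-inducible master regulator of type I interferon genes, read 255 on the miR-155 array and 94.4 on the empty-vector array (log2 ratio 1.43). Irf9, an IRF protein that acts downstream of the interferon receptors, read 257 and 155 on the miR-155 and empty-vector arrays (0.73), and Stat2, kept through its miR-155 reading, read 54.1 and 20.9. Irf2 was at 0.48 and Irf5 at −0.44, both within 1.5-fold. Ifnb1, encoding interferon beta, was below the floor on both arrays, at 13.6 (miR-155) and 13.7 (empty vector).

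Partners of the PYHIN proteins in DNA sensing that were kept were mostly within 1.5-fold. Of 18 genes of cytosolic DNA sensing by STING, 2 were at least 2-fold higher, beside 1.92% of all genes kept, with a median of 0.042 that was −0.022 with averaged probesets. Sting1, the adaptor through which p204 has been reported to act, read 302 on the miR-155 array and 111 on the empty-vector array (log2 ratio 1.45, local SD 0.28). Its other probeset gave 1.13. The second was Irf7, which is in both lists. Cgas, the synthase that makes the STING ligand, read 420 and 385 on the miR-155 and empty-vector arrays (0.13), Irf3 was at −0.42 (−0.077 in its other readable probeset) and the nuclease Dnase2a at 0.43. Cgas was named after its value was seen. Of the listed genes on the array, Zbp1, Ikbke and Ifnb1 were not kept. On the miR-155 and empty-vector arrays Zbp1 read 46.4 and 7.98, Ikbke 18.8 and 2.97 and Ifnb1 13.6 and 13.7.

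Of the 8 inflammasome genes kept, 7 reached the floor on both arrays, and 0 of these 7 differed by 1.5-fold in either direction, beside 5.32% of all genes kept higher and 5.99% lower by that much. The median of all 8 was 0.12, and that of the 7 was 0.058. The eighth was Casp4, encoding the caspase-11 protease, at 62.5 on the miR-155 array and 24.2 on the empty-vector array, which was kept through its miR-155 reading and picked with its values in view. Casp1, the protease activated by AIM2 inflammasomes, read 469 on the miR-155 array and 331 on the empty-vector array (log2 ratio 0.50), and its substrate Gsdmd, the pore-forming gasdermin D, was at 0.45. Il1rn was at 0.18 and Nek7, a partner of NLRP3, at −0.18. Other probesets readable on both arrays gave 0.66 for Il1rn and −0.064 and −0.43 for Nek7. Pycard, which encodes ASC, was below the floor on both arrays, at 12.8 (miR-155) and 6.23 (empty vector), so the adaptor that AIM2 needs could not be compared. Parent RAW264.7 cells are known to lack ASC.

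Reported protein partners of p202 and p204 had a median ratio of −0.34. Ratios were negative for 10 of the 13 genes kept, beside 58.0% of all genes kept. The 1.5-fold mark was passed downwards by 2 genes and upwards by none. Over all genes kept, 5.99% were at least 1.5-fold lower. Fos, the AP-1 subunit, read 532 on the miR-155 array and 1043 on the empty-vector array (log2 ratio −0.97, local SD 0.18), and Id3, an inhibitor of helix-loop-helix factors that binds p204, read 52.9 and 98.4 (−0.90, local SD 0.38). Id2 was at −0.52 and the retinoblastoma-like Rbl2 at −0.47, but their further probesets gave −0.20 and 0.0039.

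**Figure D4:**
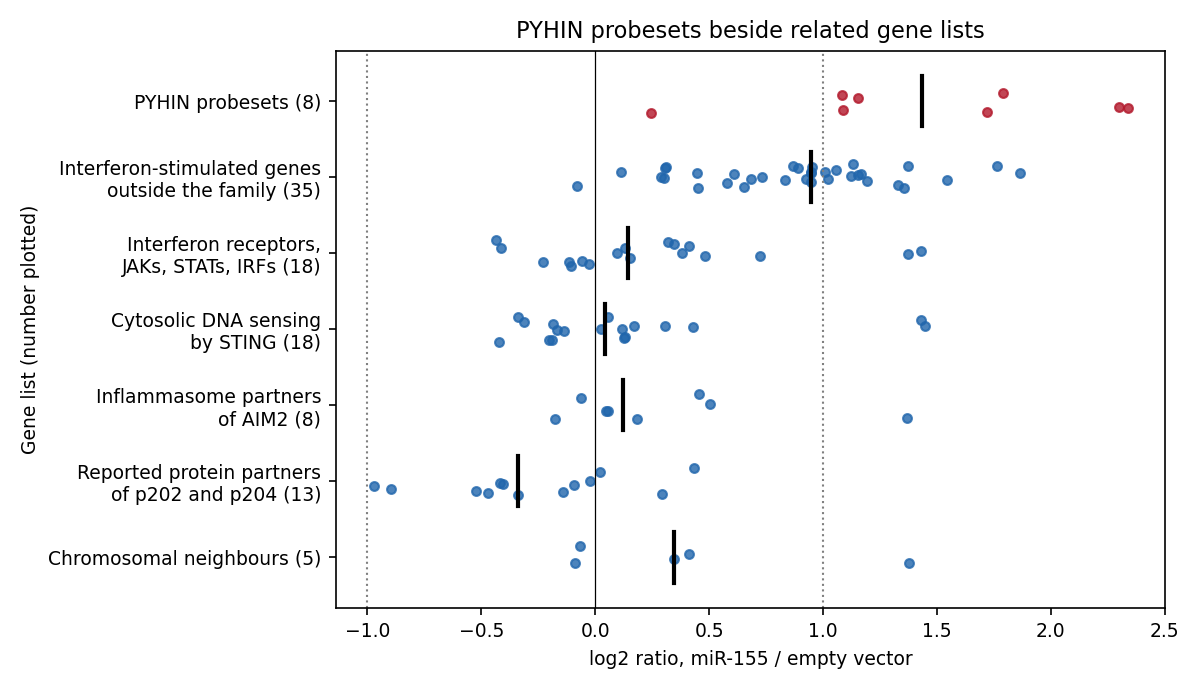
Log2 ratio (miR-155 over empty vector, horizontal axis) of the 8 PYHIN probesets at or above the floor on both arrays (red) and of the genes kept from related lists (blue), with black bars at the medians; numbers plotted are in parentheses. The interferon-stimulated genes have a median of 0.95, the STING and inflammasome lists 0.042 and 0.12, and the protein partners −0.34.

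By the pair of signals on the 2 arrays, the genes kept most like Mndal, the PYHIN gene with the highest mean log2 signal, were Ifi35, Ctsd and Kif22, at Euclidean distances of 0.29, 0.39 and 0.39 in log2 units. Ifi35, itself interferon-induced, read 1731 on the miR-155 array and 972 on the empty-vector array. Likeness over 2 arrays is a description only.

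Markers of other cell types were mostly dim. The 6 neutrophil and mast cell, 6 fibroblast and stromal and 3 erythroid markers measured were all below the floor on both arrays. Of 5 B cell markers 1 was above it, Ighm, which read 1523 on the miR-155 array and 1685 on the empty-vector array. Of 6 dendritic cell markers, Siglech read 87.7 and 188 on the miR-155 and empty-vector arrays, and Zbtb46 10.3 and 28.3. Of 5 T and NK cell markers, Cd8a read 26.5 on the miR-155 array and 14.8 on the empty-vector array, and the others were below the floor on both. Zbtb46 and Cd8a were picked with their values in view. The part of cell composition in the PYHIN ratios was not tested.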

How the data were processed

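The authors deposited probeset intensity values on a linear scale, 1 column per array. Each array holds biotin-labelled total RNA pooled from 5 clones, per the labels' protocols. How the authors summarised, background-corrected and scaled the probes is not given in the sources used. Intensities were used as deposited, with no offset. Probesets were named through the platform annotation and Entrez identifiers: leaving out 64 control probesets, 34945 had 1 symbol, 932 several and 9160 none. Each gene was represented by its probeset with 1 symbol and the highest mean log2 signal. Genes in the upper 50% of that mean were kept, and 332 of them had a reading below the floor on 1 array. No test was run, since each group has 1 array. The precision of every statement is limited by that number. Ratios are not centred; the median over all genes kept was −0.048.

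Members and gene lists were chosen with earlier results of these data known. Named were all members and cluster genes, and the 3 genes nearest Mndal. Where both readings reached the floor, all neighbours and the 4 largest absolute ratios per list were also named. Other genes given by signals were picked after their values were seen, and Socs3 and Ptpn6 were also named outside this rule. The steps were tested on simulated ratios and planted motifs. Python 3.11.15, numpy 2.4.6 and pandas 2.3.3 were used.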

Additional observations from a re-analysis of the deposited data

How the results depend on the processing

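No paired analysis was possible because each group has 1 array, and no replicate could be left out. Alternatives were an offset of 50, quantile normalisation, the median of all probesets set to 0, averaged probesets, readings raised to the floor, no filter and the upper 25% of signal. The ratios of Ifi202b, Mndal and Aim2 kept their sign in each alternative that applied and moved by less than the local SD, except Ifi202b with the offset (1.75). Of the 3 described genes kept, 2 were at least 2-fold higher (the same 2 at 1.5-fold) and 1 at least 4-fold. Over all genes kept, the shares were 5.32% at 1.5-fold, 1.92% at 2-fold and 0.264% at 4-fold. In the upper 25% of signal, where only Mndal remained, the counts were 1 at 1.5-fold, 1 at 2-fold and 0 at 4-fold; with the offset 0 reached 4-fold, and with no filter 2 did, while 3 passed 1.5-fold and 2-fold, the added gene being Ifi204 with its reading below the floor. With each gene read by its brightest probeset, shared ones included, 4 of 6 were higher at 1.5-fold and 4 at 2-fold. This alternative was chosen after seeing the data, and no share over all genes was computed for it. Ifi203 and Ifi204 were added only through shared probesets, and that of Ifi204 is shared with Mndal.

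The list medians moved as follows. Interferon-stimulated genes were at 0.74 with the offset, 1.02 with centring and 0.73 with averaged probesets. Protein partners were at −0.22 with no filter, −0.24 in the upper 25%, −0.26 with centring and −0.22 with averaged probesets. The list with receptors, kinases, STAT and IRF genes was at −0.060 in the upper 25%, 0.22 with centring and 0.058 with averaged probesets. STING genes were at 0.12 with centring and −0.022 with averaged probesets, and inflammasome genes at 0.30 with no filter. The causes were not tested. Dim probesets limit Ifi204 and Pyhin1, and shared probesets limit Ifi203.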
